A study of Parasteatoda tepidariorum with 75 samples.

Results

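Pt-fgf8 (gene model aug3.g5611) is the gene for a fibroblast growth factor 8-like ligand in the house spider Parasteatoda tepidariorum, and it is 1 of 27990 gene models whose reads were counted in these embryos. It was chosen by its counts after knockdown of the Hedgehog ligand gene Pt-hh at late stage 5, where it gave the strongest call of any gene model. That contrast is therefore given here as a description, without a test, and tests are kept for the other stages and treatments. The genes Pt-opa and Pt-otd ranked closest behind it in that contrast, with log2 fold changes of −4.18 and −6.03 against −3.94 for Pt-fgf8.

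Fibroblast growth factors are secreted proteins that bind receptor tyrosine kinases together with heparan sulphate on the cell surface. The receptors signal through adaptors, Ras and MAP kinases to ETS transcription factors, and proteins such as Sprouty and SPRED hold the pathway back. In vertebrates FGF8 is known for patterning the brain, limbs and body axis, and in Drosophila the FGF8-like ligands Pyramus and Thisbe guide the spreading of the mesoderm. Hedgehog is another secreted signal, whose receptor Patched represses the pathway until the ligand is bound. In the spider embryo Pt-hh is expressed at the rim of the germ disc, the sheet of cells that forms the embryo, and the future head lies on that side.

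Pt-fgf8 lies on scaffold 671 of the assembly Ptep_1.0, from position 239636 to 329201 on the plus strand, a span of 89566 bases. No other gene model on the scaffold overlaps it, and it is the only gene model assigned to the RefSeq gene LOC107453597, described as fibroblast growth factor 8-like. The deposited annotation gave human FGF8 as its closest human match, with an E-value of 1.00E-17, and Thisbe (ths) as its closest Drosophila match, with an E-value of 0.004. The neighbours on the scaffold were aug3.g5612, described as a copper uptake protein, and aug3.g5613, described as a TRPM1 cation channel.

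Every library came from poly(A) RNA of whole embryos of the isolate Osaka, pooled from siblings of a single female. An untreated egg sac was laid 1 to 3 days before the first injection of double-stranded RNA, and the pRNAi (parental RNA interference) egg sacs came from the same female 13 to 24 days after it. Embryos of 2 females injected with Pt-hh, 3 with Pt-ptc (patched, the Hedgehog receptor) and gfp females 1 to 3 were sampled at stage 3 (early) and stage 5 (late). Those of 3 females injected with Pt-msx1, an msh-type homeobox gene, and gfp females 4 and 5 were sampled at stage 5 (late) and stage 6 (early). dsRNA for the jellyfish gene gfp served as the negative control. In all, 68 libraries were analysed, 26 untreated and 42 pRNAi, with 5961730 to 16400327 counts each, and Pt-fgf8 had 40 to 3837 counts per library. Egg sacs of a female are not independent, yet each library was fitted as its own observation. The models took out differences in level between females, so p-values measure the spread that remained between these libraries. Levels are CPM, the counts of a gene scaled to an equal total over all gene models of a library.

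The targeted genes were checked first. Pt-hh was at 1.37 to 6.68 CPM in the Pt-hh pRNAi libraries of stage 3 against 10.2 and 20.8 CPM in the untreated ones, and at 2.17 to 3.06 CPM against 33.7 and 60.3 CPM at stage 5. Pt-ptc was at 48.5 to 88.7 CPM in the libraries labelled Pt-ptc pRNAi of stage 3, with 82.2, 108 and 177 CPM before injection, which missed the threshold (edgeR adjusted p = 0.0227). At stage 5 Pt-ptc was not lower in the libraries labelled Pt-ptc pRNAi, with 467 to 613 CPM against 411 to 544 CPM. The paper's own analysis called Pt-ptc at stage 3 and not at stage 5. It proposes that the knockdown promotes Hedgehog signalling, which activates Pt-ptc transcription, and cites earlier work that found less Pt-ptc RNA in the cytoplasm. Pt-msx1, a gene of the centre of the germ disc, was at 1.02 to 2.52 CPM in those stage 5 libraries against 98.6 to 148 CPM in the untreated ones. In the libraries labelled Pt-msx1 pRNAi, Pt-msx1 was not detectably lower, with 74.9 to 110 CPM against 79.1 to 134 CPM at stage 5 (edgeR adjusted p = 1) and 95.6 to 200 CPM against 124 to 158 CPM at stage 6 (adjusted p = 0.935). The stage 6 pRNAi libraries of gfp female 5 and Pt-msx1 female 1 held equal counts for 100% of gene models, so the same counts stand under both labels. Their deposited RPKM values differ, with 35.3 and 32.9 for Pt-fgf8, and which label the counts belong to is unknown. Pt-fgf8 results that use these libraries are also given without them. The Pt-msx1 level of 200 CPM belongs to it, and in the other 2 females Pt-msx1 at stage 6 went from 158 to 125 CPM and from 124 to 95.6 CPM.

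In normal development Pt-fgf8 was low at early stage 3, high at late stage 5 and stayed high at early stage 6. In untreated embryos the level was 11.1 to 43.9 CPM at stage 3, with a median of 22.04 (n = 8 females). At late stage 5 it was 79.1 to 192 CPM, with a median of 146 (n = 13), and at early stage 6 it was 130 to 169 CPM, with a median of 140 (n = 5). The stage 3 and stage 5 ranges did not overlap, while all of the stage 6 values lay within the stage 5 range. The 5 females taken to stage 6 had 125 to 192 CPM at stage 5. On the deposited RPKM scale, which divides by gene length, the mean level was 5.11 ± 2.66 (SD, n = 8) at stage 3, 30.1 ± 8.33 (n = 13) at stage 5 and 32.5 ± 3.66 (n = 5) at stage 6. By that mean, 71.4% of gene models lay below Pt-fgf8 at stage 3 and 91.6% at stages 5 and 6.

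The step from stage 3 to stage 5 was followed within females. Pt-fgf8 rose in 8 of 8 untreated egg sacs, by 3.17-fold to 16.1-fold with a median of 5.11-fold, and the fitted log2 fold change was 2.65 (SE 0.23). It passed the edgeR quasi-likelihood test with an adjusted p of 1.27e-07, in a comparison where 65.8% of all gene models passed. The highest step was that of Pt-hh female 2, from 11.1 to 178 CPM, and the lowest that of gfp female 1, from 33.5 to 106 CPM. Untreated libraries of the Pt-hh females also entered the contrast that chose the gene. Without them the log2 fold change was 2.39 (SE 0.22, adjusted p = 2.11e-06). From stage 5 to stage 6 Pt-fgf8 was higher in 2 and lower in 3 of 5 egg sacs, with folds of 0.689 to 1.14. The log2 difference of −0.14 had a 95% interval of −0.38 to 0.11 and did not pass (adjusted p = 0.553, background 2.25%).

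**Figure D1:**
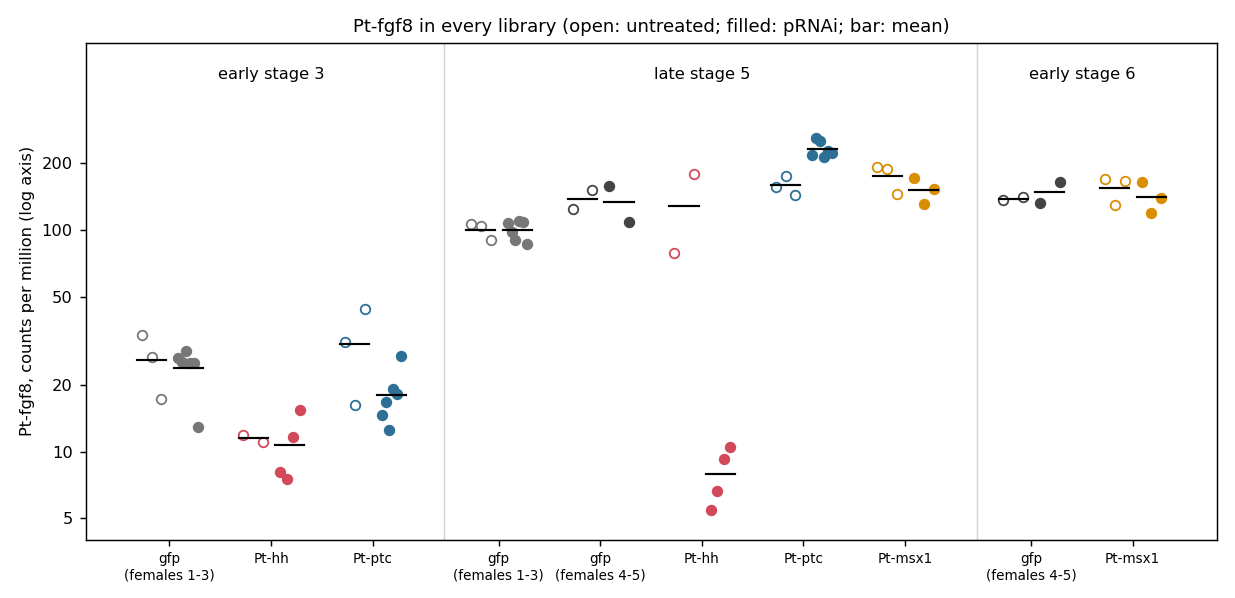
Level of Pt-fgf8 in CPM (log axis) in each library, by stage and by the dsRNA of the female. Open points are untreated and filled points pRNAi egg sacs, and bars are group means. The 4 Pt-hh pRNAi libraries of late stage 5 lie between 5.43 and 10.5, and the 6 Pt-ptc pRNAi libraries of that stage lie between 212 and 260, above all other libraries.

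After Pt-hh pRNAi, Pt-fgf8 transcripts at late stage 5 had the lowest mean level of any group. Female 1 had 79.1 CPM before injection, and the egg sacs of days 16 and 20 had 5.43 and 6.63 CPM. Female 2 had 178 CPM before injection, and 9.29 and 10.5 CPM on days 18 and 22. The groups did not overlap, and the female with the higher untreated level also had the higher pRNAi levels. The mean of the pRNAi egg sacs was 13.1 times lower in female 1 and 18.03 times lower in female 2. The fitted log2 fold change was −3.94, a 15.3-fold lower level, in a contrast where 3.55% of gene models passed the threshold. These values chose the gene and carry no test. The counts behind them were 40, 41, 73 and 94 in the pRNAi libraries and 563 and 1340 in the untreated ones, so transcripts were still counted in every library.

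At early stage 3 Pt-fgf8 was not detectably changed by Pt-hh pRNAi. Female 1 had 11.9 CPM before injection and 8.09 and 7.496 CPM after it, while female 2 had 11.1 CPM before and 11.7 and 15.4 CPM after. The direction thus differed between the females. The log2 fold change of −0.30 (SE 0.25) had a 95% interval of −0.83 to 0.24 and did not pass the edgeR test (adjusted p = 0.624, background 0.34%). The difference from the gfp response at that stage was 0.07 (SE 0.28, adjusted p = 0.974, background 0.0276%). Leaving out female 1 turned the stage 3 value to 0.21 and leaving out female 2 gave −0.77, and neither passed.

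In the libraries labelled Pt-ptc pRNAi, Pt-fgf8 was higher at late stage 5. Untreated levels were 157, 175 and 144 CPM in females 1, 2 and 3. After injection they were 219 and 260 CPM in female 1, 252 and 212 CPM in female 2, and 226 and 223 CPM in female 3. The 6 pRNAi libraries all lay above all 3 untreated ones, and the rise in the mean was 1.53-fold, 1.33-fold and 1.56-fold in the 3 females. The log2 fold change was 0.64 (SE 0.10, 95% interval 0.44 to 0.85) and passed the edgeR test with an adjusted p of 0.00203. Among 12195 gene models tested there, 1.01% passed in either direction and 0.295% rose. The rise kept its size but not its call when the egg sacs of a female were summed (0.64, adjusted p = 0.012), when the female was left out of the model (0.64, adjusted p = 0.0121), and without female 1 or female 3 (0.62 and 0.60, adjusted p = 0.0156 and 0.0683). The gfp response at the same stage was 0.01, and the difference between the Pt-ptc and gfp responses was 0.63 (SE 0.13, 95% interval 0.36 to 0.90). That difference had an adjusted p of 0.0219, short of the threshold of 0.01 that 0.365% of gene models passed, and over the alternatives it ranged from 0.000451 (DESeq2) to 0.315 (female left out of the model).

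At early stage 3 the value in the Pt-ptc experiment pointed the other way. Levels were 31.4, 16.2 and 43.9 CPM in untreated embryos of females 1, 2 and 3, and 12.5 to 26.9 CPM in the 6 pRNAi libraries. The groups overlapped, since female 2 had 16.2 CPM before injection and 12.5 and 19.2 CPM after it. The log2 fold change was −0.72 (SE 0.20, 95% interval −1.15 to −0.30), and did not pass the edgeR test (adjusted p = 0.0992, background 0.134%). Without the filter on low counts it passed (−0.71, adjusted p = 0.000815). In gfp females 1 to 3 the stage 3 value was also below 0, at −0.36 (SE 0.14, adjusted p = 0.136, background 1.26%), and lower in 3 of 3 females. The difference between these responses was −0.35, with a 95% interval of −0.87 to 0.17 (edgeR adjusted p = 0.643, background 0%, with 1619 gene models at an unadjusted p under 0.05).

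In the Pt-ptc females the change of Pt-fgf8 after injection differed between the stages. The test of this used no gfp libraries, and in gfp females 1 to 3 the values were −0.36 at stage 3 and 0.01 at stage 5. Set against gfp, the Pt-ptc response did not pass at either stage. A treatment by stage term over both stages gave a log2 difference of 1.37 (SE 0.22, 95% interval 0.92 to 1.83), which passed the edgeR test with an adjusted p of 0.00121 in a comparison where 0.452% of gene models passed. Without female 1 it was 1.19 (adjusted p = 0.0454) and without female 3 it was 1.17 (adjusted p = 0.0689), so the call needs both of them. With the female left out of the model it was 1.44 (adjusted p = 0.149). Female 2, whose untreated stage 3 level was the lowest of the 3, had a mean stage 3 pRNAi level 0.976 times the untreated one, against 0.501 and 0.514 times in females 1 and 3.

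**Figure D2:**
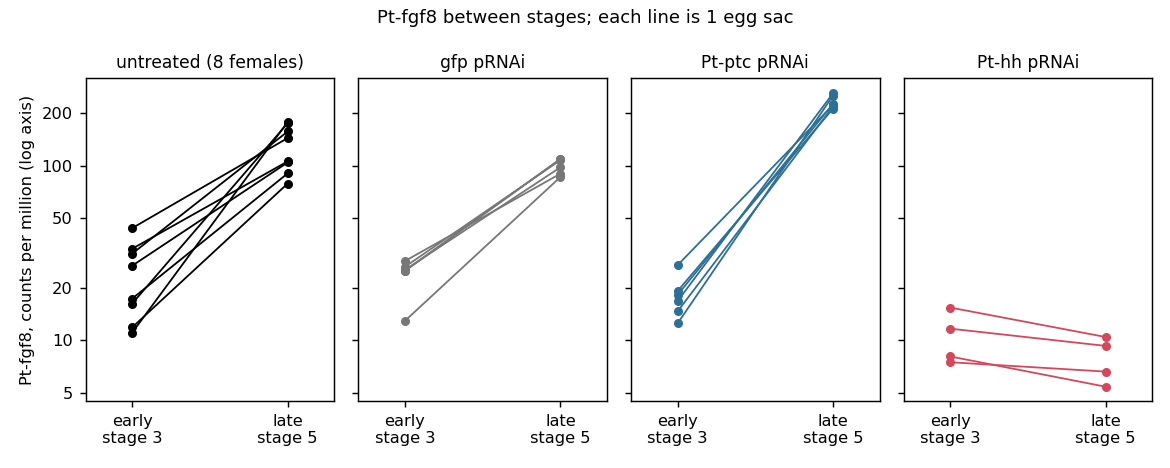
Pt-fgf8 in CPM (log axis) at early stage 3 and at late stage 5, with a line for each egg sac. Levels rose in 8 of 8 untreated, 6 of 6 gfp and 6 of 6 Pt-ptc pRNAi egg sacs, and were lower at stage 5 in 4 of 4 Pt-hh pRNAi egg sacs.

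These responses can be read as the size of the stage step within each egg sac. In the 6 gfp pRNAi egg sacs Pt-fgf8 rose 3.17-fold to 6.67-fold between the stages, with a fitted log2 fold change of 2.40 (SE 0.13, adjusted p = 4.59e-09, background 69.6%). In the 6 Pt-ptc pRNAi egg sacs it rose 8.27-fold to 20.2-fold, with a log2 fold change of 4.01 (SE 0.16, adjusted p = 1.91e-09, background 72.2%). Each set of 6 egg sacs came from 3 females, and these fits took egg sacs of the same female as separate pairs. The ranges of the pRNAi egg sacs with gfp and Pt-ptc dsRNA did not overlap, but untreated egg sacs of the Pt-ptc females rose 5.00-fold, 10.8-fold and 3.28-fold, the second of which lies within the Pt-ptc pRNAi range. In the 4 Pt-hh pRNAi egg sacs the stage 5 level was 0.671 to 0.884 times the stage 3 level, given without a test because it holds the libraries that chose the gene. Untreated egg sacs of the same 2 females rose 6.67-fold and 16.1-fold.

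gfp dsRNA was not followed by a detectable change of Pt-fgf8 at stages 5 or 6. In gfp females 1 to 3 the level at stage 5 was 106, 104 and 90.4 CPM before injection and 86.1 to 109 CPM after it, with a log2 fold change of 0.01 (95% interval −0.19 to 0.22, adjusted p = 0.976, background 0.137%). In gfp females 4 and 5 the stage 5 levels were 125 and 151 CPM before and 158 and 109 CPM after injection, in opposite directions. The log2 fold change there was 0.06 (95% interval −0.37 to 0.49, adjusted p = 0.965, background 0.231%). At stage 6 these females had 137 and 140 CPM before and 132 and 165 CPM after, a log2 fold change of 0.15 (95% interval −0.07 to 0.37, adjusted p = 0.644, background 1.71%). The value of 165 CPM belongs to the library that equals one of Pt-msx1 female 1, and without it only female 4 remains, at −0.04 on the log2 scale and with no test.

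In the libraries labelled Pt-msx1 pRNAi, Pt-fgf8 was not detectably changed either. At stage 5 the level was 192, 189 and 146 CPM in untreated embryos of females 1, 2 and 3 and 171, 131 and 153 CPM after injection. At stage 6 it was 169, 130 and 166 CPM before and 165, 119 and 139 CPM after, lower in 3 of 3 females. The groups overlapped at both stages. The log2 fold change was −0.17 (95% interval −0.53 to 0.19, adjusted p = 0.969) at stage 5 and −0.13 (95% interval −0.40 to 0.13, adjusted p = 0.768) at stage 6. No gene model passed in either comparison (background 0%), with 696 and 775 gene models at an unadjusted p under 0.05. The paper, by contrast, listed genes past a threshold of 0.01 after Pt-msx1 pRNAi at stage 6, also by edgeR. It then stained embryos for a selection of them. The cause of this difference was not tested. Without female 1, whose stage 6 pRNAi library is one of the equal pair, the stage 6 value was −0.18 (adjusted p = 0.64). The difference from the gfp response was −0.23 at stage 5 and −0.31 at stage 6 (both edgeR adjusted p = 1, background 0%, with 520 and 338 gene models at an unadjusted p under 0.05). Without both females of the equal libraries the stage 6 difference was −0.22.

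**Figure D3:**
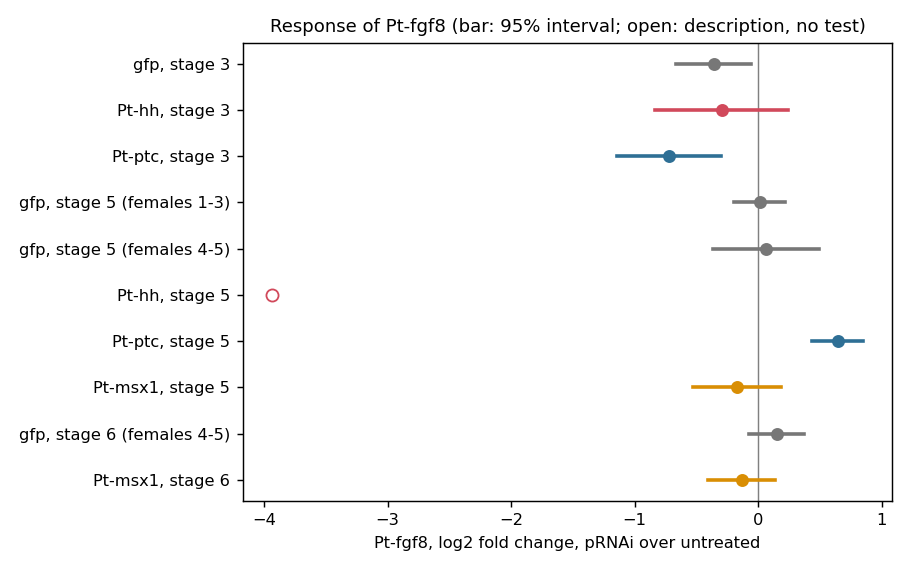
Log2 fold change of Pt-fgf8, pRNAi over untreated, in each experiment and stage. Bars are 95% intervals, and the open point at −3.94 for Pt-hh at stage 5 is a description without a test. The interval of Pt-ptc at stage 5 runs from 0.44 to 0.85, and those of the gfp and Pt-msx1 comparisons at stages 5 and 6 include 0.

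Several females gave more than 1 egg sac after injection, and Pt-fgf8 did not change detectably between the first and the second. The log2 difference, second over first, was 0.11 for Pt-hh at stage 3 (background 0.00756%). For Pt-ptc it was 0.45 at stage 3 (SE 0.21, unadjusted p = 0.0515) and 0.03 at stage 5. For gfp females it was 0.01 at stage 3 and −0.05 at stage 5. The adjusted p of the 5 comparisons was 0.997 to 1, and no gene model passed the edgeR test in the last 4 of them (background 0%), with 175 to 929 gene models at an unadjusted p under 0.05. At stage 3 the later egg sac was the higher one in 3 of 3 Pt-ptc females. In the Pt-hh females at stage 5 the later egg sac was also slightly higher, at 6.63 against 5.43 CPM and 10.5 against 9.29 CPM.

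Ordered by their means, the 20 groups of an experiment, stage and treatment ran from 7.95 ± 2.32 CPM (SD, n = 4) in Pt-hh pRNAi at stage 5 to 232 ± 19.4 CPM (n = 6) in Pt-ptc pRNAi at stage 5. Of the 19 pairs of neighbours in that order, 16 overlapped in range and 3 did not. A gap lay above the 2 untreated stage 3 libraries of the Pt-hh females, at 11.1 and 11.9 CPM, below the lowest Pt-ptc pRNAi library of that stage at 12.5 CPM. It held between these neighbours only, since the range of the Pt-hh pRNAi libraries of stage 3 ran across it. The next gap separated untreated stage 3 embryos of the Pt-ptc females, at most 43.9 CPM, from gfp pRNAi embryos of stage 5, at least 86.1 CPM. The third lay between untreated stage 5 embryos of the Pt-msx1 females, at most 192 CPM, and Pt-ptc pRNAi embryos, at least 212 CPM. The Pt-hh pRNAi embryos of stage 5 overlapped with those of stage 3, which had 7.496 to 15.4 CPM. Over all libraries the highest level was 47.97 times the lowest.

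The annotation held 1 other gene model described as an FGF ligand, aug3.g6699 (fibroblast growth factor 1), and 9 described as FGF receptors. The mean RPKM of aug3.g6699 in untreated embryos was 0.0948 at stage 3, 0.120 at stage 5 and 0.0774 at stage 6, with at most 3 counts in any untreated library. It was below the count filter in every comparison listed for the pathway, so it was not tested. Per length, Pt-fgf8 was therefore the more abundant of these ligands at each stage, at 5.11, 30.1 and 32.5 RPKM.

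Among the receptors, the most abundant gene model changed between stages. aug3.g26271 (fibroblast growth factor receptor 3-like, a receptor tyrosine kinase) had a mean of 44.6 ± 18.7 RPKM (SD, n = 8) in untreated embryos of stage 3, 2.11 ± 0.918 (n = 13) at stage 5 and 1.43 ± 0.597 (n = 5) at stage 6. It fell by 4.30 on the log2 scale between stages 3 and 5 (SE 0.18, adjusted p = 4.32e-11). aug3.g26565 (fibroblast growth factor receptor 4) had 4.75 ± 1.16, 14.8 ± 3.33 and 22.8 ± 3.87 RPKM at the 3 stages. It rose by 1.76 (SE 0.17, adjusted p = 2.76e-07) between stages 3 and 5 and by 0.56 (SE 0.09, adjusted p = 0.00261) between stages 5 and 6. aug3.g16612 (fibroblast growth factor receptor-like 1, a receptor without a kinase domain in vertebrates) rose by 4.27 (SE 0.50, adjusted p = 2.90e-06) between stages 3 and 5, from 0.129 to 3.05 RPKM. The other 6 receptor models had means of at most 0.471 RPKM at any stage.

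None of the 3 receptor models tested passed in the Pt-ptc comparison at stage 5. There the log2 fold change was −0.19 (SE 0.11, adjusted p = 0.443) for aug3.g26565, −0.05 (SE 0.26, adjusted p = 0.956) for aug3.g26271 and −0.05 (SE 0.21, adjusted p = 0.947) for aug3.g16612. After Pt-hh pRNAi at stage 5, aug3.g26565 had 46.7, 40.1, 37.7 and 39.6 CPM against 52.7 and 75.2 CPM in untreated embryos, a log2 fold change of −0.60. In gfp females 4 and 5 the same receptor was lower at stage 6, by −0.51 (SE 0.11, adjusted p = 0.00296), 1 of 50 listed genes against 0.677% of all gene models lower. That result includes the library whose counts also stand under the Pt-msx1 label, and cannot be fitted without it. Neither DESeq2 nor the model without the female gave this call.

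Across the wider pathway, 69 gene models besides Pt-fgf8 were listed by their descriptions. They were 1 ligand, 9 receptors, 9 adaptors at the receptor, 10 members of the Ras and MAP kinase cascade, 12 ETS transcription factors, 6 inhibitors, and 22 heparan sulphate genes. Between stages 3 and 5 of untreated embryos 56 of them were tested, of which 24 rose and 18 fell (background 31.9% and 33.9%), 75% against 65.8% in either direction, and 39 passed without the Pt-hh females. Their median log2 fold change was 0.35, against −0.07 for all gene models. Glypicans, which carry heparan sulphate chains, were among those that rose, with log2 fold changes of 3.50 for aug3.g1222 (glypican-5) and 2.44 for aug3.g11833 (glypican-6). Heparan sulphate 3-O-sulfotransferases, which modify the chains, were among those that fell, with −6.78 for aug3.g2195 and −5.10 for aug3.g2196. From stage 5 to stage 6, 1 of 51 rose and 2 fell (background 1.45% and 0.804%), the latter being aug3.g4238 (an ETS factor of the SPDEF type, −1.21) and aug3.g3559 (exostosin-1-like, an enzyme of heparan sulphate chain growth, −0.57).

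At late stage 5, 49 of the 69 were tested in the Pt-ptc comparison and none passed, against 1.01% of all gene models. Their median log2 fold change was −0.02 and that of all gene models 0.00, with 10 of the 49 at an unadjusted p under 0.05. DESeq2 and the likelihood ratio test of edgeR each called 2 of them. In the Pt-hh comparison, which chose Pt-fgf8, 48 were tested and 6 were past the threshold, all lower, 12.5% against 1.21% of all gene models lower. These are given as a description only. They comprised 4 ETS factor models, namely aug3.g7547 (c-ets-2-A-like, −1.67), aug3.g19580 (C-ets-1-like, −1.23), and the neighbours aug3.g3965 (−1.20) and aug3.g3964 (−1.10), both described as C-ets-2-like. The others were aug3.g5499 (SPRED2, an inhibitor of Ras signalling, −1.27) and aug3.g11833 (glypican-6, −1.17). The paper found some pairs of aug3 gene models to come from the same gene. Whether aug3.g3964 and aug3.g3965 are such a pair was not tested. The count was 2 without the female in the model, and 10 without female 1. Between untreated stages 3 and 5, 5 of the 6 had risen, with log2 fold changes of 0.46 to 2.44, and aug3.g5499 stood at 0.08 (adjusted p = 0.616).

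The 6 differed in how evenly the females contributed. aug3.g7547 and aug3.g11833 were lower to a like degree in both. aug3.g7547 had 25.3 and 29.9 CPM in untreated embryos of Pt-hh females 1 and 2, and 7.06, 7.92, 10.6 and 8.34 CPM in the pRNAi egg sacs. aug3.g11833 had 62.2 and 76.1 CPM before injection and 30.1, 26.5, 34.4 and 28.8 CPM after it. aug3.g19580 and aug3.g3965 rested more on female 2, and without that female their log2 fold changes were −0.54 and −0.56. aug3.g19580 had 10.1 CPM before injection and 9.23 and 5.17 CPM after it in female 1, against 35.7 CPM before and 10.7 and 9.56 CPM after it in female 2. It was also lower after gfp dsRNA at stage 5. Gfp female 1 went from 20.9 to 20.1, 11.7 and 15.7 CPM, female 2 from 30.2 to 13.0 and 16.5 CPM, and female 3 from 21.9 to 21.3 CPM. None of the 48 listed genes tested in that gfp comparison passed. aug3.g7547 and aug3.g11833 both had higher levels in Pt-ptc pRNAi than in untreated embryos, by 0.65 (SE 0.15, adjusted p = 0.044) and 0.47 (SE 0.10, adjusted p = 0.0278) on the log2 scale, short of the threshold of 0.01.

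**Figure D4:**
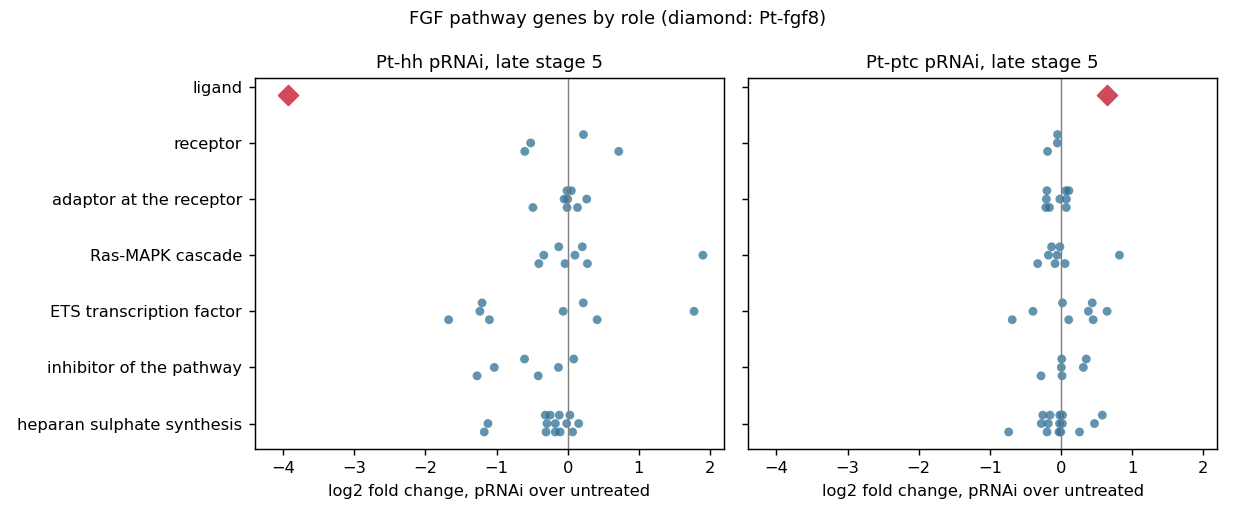
Log2 fold change, pRNAi over untreated, of the FGF pathway gene models tested at late stage 5, by role, for Pt-hh (left) and Pt-ptc (right). The diamond is Pt-fgf8, at −3.94 and 0.64, and the other points are the 48 and 49 other gene models tested.

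Gene models were ranked by how closely their levels followed Pt-fgf8, using Pearson's r of log2(CPM + 1) over 67 libraries, with the equal pair counted once. The libraries share females, stages and treatments and include those that chose Pt-fgf8, so r is a description. The closest was Pt-otd (aug3.g9172), a homeobox gene of the otd/Otx type known for patterning the head in many animals, with r = 0.96. Next came aug3.g15550 (described as dendritic arbor reduction protein 1), aug3.g9493 (adhesion G protein-coupled receptor L1-like), Pt-ptc and aug3.g8856 (serine-rich adhesin), with r of 0.94, 0.94, 0.92 and 0.92. Of 15790 gene models, 7 had an r above 0.9, and the 95th percentile was 0.77. Without the Pt-hh females (55 libraries) the 5 had r of 0.88 to 0.95 but ranked only 8, 171, 63, 133 and 791 in the same order. The lowest r was −0.90 for aug3.g3353 (nephrocystin-3-like) and −0.89 for aug3.g7716 (synaptotagmin-4-like).

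The libraries fell into a low and a high set. In the 28 libraries of stage 3 or of Pt-hh pRNAi at stage 5, Pt-fgf8 reached at most 43.9 CPM and Pt-otd at most 12.9 CPM. In the other 39 libraries Pt-fgf8 was at least 79.1 CPM and Pt-otd at least 41.7 CPM. Within the 24 libraries of stage 3, r with Pt-otd was 0.70, and within those 39 it was 0.53. For aug3.g15550 the values within these sets were 0.74 and 0.425, and for aug3.g9493 they were 0.48 and 0.60. For Pt-ptc they were 0.16 and 0.33, and for aug3.g8856 0.49 and 0.09. Both sets include libraries labelled Pt-ptc pRNAi, in which Pt-ptc itself was the targeted gene. In the late stage 5 libraries alone Pt-opa, a zic-type zinc finger gene, reached r = 0.97, against 0.51 over all libraries and 0.77 in the 28 late stage 5 libraries without the Pt-hh females. Pt-opa is itself among the lowest in the contrast that chose Pt-fgf8. Its level in untreated embryos was already 168 to 353 CPM at stage 3.

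**Figure D5:**
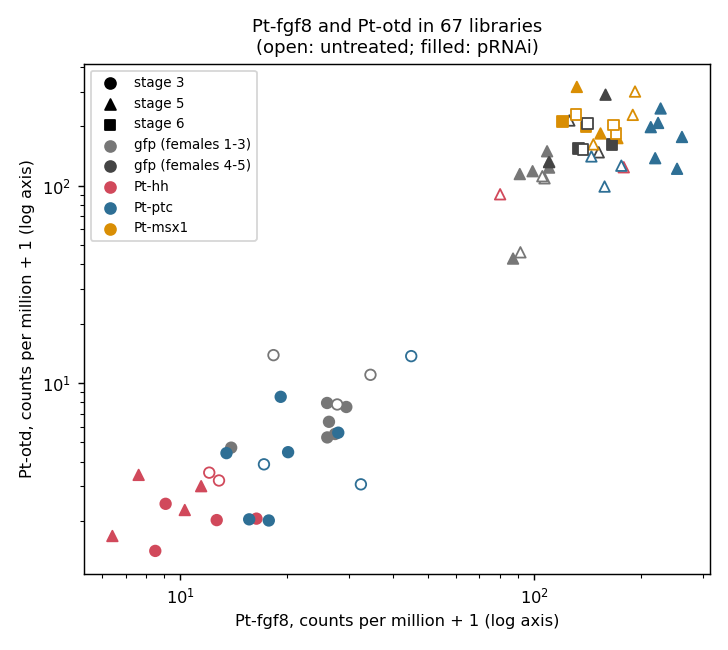
Pt-fgf8 against Pt-otd, both as CPM + 1 on log axes, in 67 libraries. Marker shapes are stages, colours are the dsRNA of the female, and open points are untreated. Libraries of stage 3 and of Pt-hh pRNAi at stage 5 form the lower set, with Pt-otd at most 12.9 CPM.

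Because RNA came from whole embryos, these counts cannot tell fewer cells with Pt-fgf8 transcripts from less RNA per cell. Levels of regional markers of the germ disc are given beside Pt-fgf8 as a description, since the study chose most of them by their responses to Pt-hh and Pt-ptc pRNAi in these libraries. In the libraries labelled Pt-ptc pRNAi at stage 5 the summed level of 5 rim and peripheral markers (Pt-hh, Pt-otd, Pt-BarH1, Pt-opa and Pt-lab-A) was 1279 to 1717 CPM against 773 to 859 CPM. That of 3 intermediate ones (Pt-frizzled4, Pt-mirr4 and Pt-rhomboid) was 19.7 to 51.1 CPM against 146 to 156 CPM, and that of 3 central ones (Pt-msx1, Pt-gas1 and Pt-AP2-A) was 14.6 to 20.6 CPM against 239 to 334 CPM. The rim and peripheral sum was thus higher, as Pt-fgf8 was, and the intermediate and central sums were lower. Of the 5 rim and peripheral markers 3 passed the edgeR test as higher. Pt-hh (log2 fold change 0.37, adjusted p = 0.222) and Pt-otd (0.66, adjusted p = 0.046) did not. Pt-noggin-D, which marks the epithelium over the cumulus, a group of cells that moves from the centre of the disc towards its rim, had 68.9 to 90.8 CPM against 113 to 149 CPM. By staining of embryos, the paper found Pt-fgf8 expression to be rather stochastic, with a tendency to lie near the cumulus. The figure it cites shows germ discs of pRNAi embryos at late stage 5, and those images were not examined here. Pt-Delta, which the paper describes both on the yolk side and in the centre of the disc, had 154 to 271 CPM against 231 to 324 CPM, ranges that overlapped. After Pt-hh pRNAi at stage 5 the summed rim and peripheral level was 80.1 to 106 CPM against 671 and 788 CPM, and the central one 630 to 856 CPM against 306 and 449 CPM. The intermediate sum was also lower there, at 53.2 to 86.8 CPM against 118 and 132 CPM. Pt-noggin-D had 37.2 to 127 CPM against 109 and 138 CPM, and Pt-Delta 270 to 320 CPM against 262 and 270 CPM. No marker was at 0 in all libraries of a group. The part of these regions in the Pt-fgf8 values was not tested.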

How the data were processed

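Counts per gene model were deposited by the authors for 68 libraries, and RPKM values beside them. Per the labels and methods, the authors trimmed reads with CLC software, mapped them to Ptep_1.0 with BLAT, filtered alignments with filterPSL.pl and counted reads on the aug3 gene models by strand with htseq-count (HTSeq 0.5.4p5). RPKM was likewise computed by the authors and was used here only for levels between genes. E-values of closest matches are in the other unit of the deposited annotation. The authors' comparison columns hold fold changes and p-values and were neither used nor printed. Value columns of no sample numbered 0, and 7 gfp samples of stage 7 were not analysed here.

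Gene models that reached 1 CPM in any library of a comparison were tested with edgeR 4.0.16 (R 4.3.3), using TMM scaling, the quasi-likelihood F test, the female as a block, Benjamini-Hochberg adjustment over all gene models tested and a threshold of 0.01. Intervals are 95%. There were 25 comparisons of Pt-fgf8, of which 24 were tested. The labels pair untreated and pRNAi egg sacs by female, and deviations from the group means correlated within females (r of 0.281 to 0.762). Alternatives were DESeq2 1.42.0, the likelihood ratio test, other scaling and filters, no block, libraries summed by female, first or later egg sacs, and leaving out each female. Leaving out the females of the libraries with equal counts, and omitting the block from the differences between responses, were chosen after seeing the data.

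Named genes were Pt-fgf8, the listed FGF pathway members, regional markers of the germ disc, and the 5 gene models with the highest and the 2 with the lowest r with Pt-fgf8. Pathway members were listed by words in the deposited descriptions, and false matches were excluded after the descriptions were seen. Pt-fgf8 and the lists were chosen with earlier results of these data known. The code was tested on simulated data. Counting error is largest for the lowest libraries, where Pt-fgf8 had 40 counts.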

Additional observations from a re-analysis of the deposited data

Results flagged for a closer look

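The response of Pt-fgf8 in the libraries labelled Pt-ptc pRNAi differed between late stage 5 and early stage 3 by 1.37 on the log2 scale, by a test of the difference itself (edgeR adjusted p = 0.00121), and was 1.17 to 1.71 on leaving out each female. That test did not set the response against gfp, and it did not pass with the female left out of the model (1.44, adjusted p = 0.149). Among gfp pRNAi libraries of stage 3, that of female 3 stood below the others at 12.9 CPM, and the untreated library of that female was the lowest of its group too, at 17.3 CPM. Among gfp pRNAi libraries of stage 5, that of female 4 stood above the others at 158 CPM. That group pools females 1 to 3, at 86.1 to 109 CPM, with the separate set of females 4 and 5, at 158 and 109 CPM. Groups of 4 to 10 libraries numbered 7, and chance alone marks about 1 in 20 groups.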

How the results depend on the processing

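Over the alternatives, Pt-fgf8 kept its direction and side of the threshold in 218 values, passed only under the alternative in 4 and lost the call in 9. In 8 it changed sign, and none of those passed on either side. Of these, gfp females 1 to 3 at stage 5 gave −0.0238 with the later egg sacs, and gfp at stage 5 gave 0.0455 for the second egg sac over the first with no replicate block. The others came from leaving out each female, which gave −0.77 to 0.21 for Pt-hh at stage 3, −0.0262 to 0.0469 for gfp females 1 to 3 at stage 5, −0.70 to 0.23 for Pt-msx1 against gfp at stage 5, −0.43 to 0.57 for Pt-hh against gfp at stage 3, −0.0894 to 0.108 for the egg sacs of Pt-ptc at stage 5 and −0.0131 to 0.0615 for those of gfp at stage 3. The rise in Pt-ptc pRNAi at stage 5 lost its call with no replicate block (0.64, adjusted p = 0.0121), with libraries summed by female (0.64, 0.012), with the first egg sacs (0.62, 0.0455) and with the later ones (0.65, 0.0137), and was 0.60 to 0.70 on leaving out each female. Fits with no replicate block of the differences between responses were added after seeing the data. Among them the Pt-ptc difference between stages lost its call (1.44, adjusted p = 0.149), and no other call of Pt-fgf8 changed. The Pt-ptc value at stage 3 passed without the low-count filter (−0.71). The difference between Pt-ptc and gfp at stage 5 passed with the likelihood ratio test, DESeq2 and no filter (each 0.63). The Pt-ptc difference between stages was 1.17 to 1.71 on leaving out each female.

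Counts of FGF pathway genes moved as follows. For Pt-hh at stage 3, from 0 to 1 at a threshold of 0.05, 2 with the likelihood ratio test, 4 without a filter and 3 on leaving out either female. For Pt-hh at stage 5, from 6 to 10 without a filter, 2 with no replicate block and 2 with libraries summed, with 5 to 10 on leaving out each female. For Pt-ptc at stage 3, from 0 to 1 with DESeq2. At stage 5, from 0 to 2 at 0.05, 2 with the likelihood ratio test, 2 with DESeq2 and 3 without a filter. For gfp at stage 3, from 0 to 5 at 0.05, 4 with the likelihood ratio test and 3 with DESeq2. For gfp at stage 6, from 1 to 2 at 0.05, and 0 with DESeq2 or no replicate block. From untreated stage 5 to 6, from 3 to 6 at 0.05 or with the likelihood ratio test, 7 without a filter, 0 with no replicate block, and 1 to 4 on leaving out each female. Of the 5 gene models most like Pt-fgf8, 3 stayed among the top 5 in stage 5 libraries alone, 0 without the Pt-hh females and 2 by Spearman's rho. The cause of these moves was not tested. Leaving out a female could not be fitted for gfp females 4 and 5, nor for the order of egg sacs after Pt-hh pRNAi.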
